A study of Mus musculus with 8 samples.

Results

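Forkhead genes encode transcription factors that share a winged-helix DNA-binding domain, and 8 of them with known roles in vascular or dividing cells were followed here through the ribosome-bound RNA of mouse lung endothelium. The 8 genes, Foxf1, Foxp1, Foxo1, Foxo3, Foxc1, Foxc2, Foxn3 and Foxm1, were taken by symbol from count tables that hold 23238 symbols, of which 44 are forkhead genes. FOXF1 acts downstream of Hedgehog signalling in lung mesoderm and is needed to build the alveolar capillary bed. The FOXO factors restrain growth and are pushed out of the nucleus when AKT phosphorylates them, FOXC1 and FOXC2 act in arterial specification and lymphatic valves, FOXP1 is mainly a repressor, and FOXM1 drives mitotic genes.

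All libraries came from lungs of C57BL/6J mice carrying Cdh5-CreERT2, a tamoxifen-inducible recombinase driven by an endothelial promoter, and the RiboTag allele RPL22tm1.1Psam, which puts an HA tag on a ribosomal protein where the recombinase has acted. Tamoxifen was given to every mouse at 8 weeks of age, at 2 mg a day for 5 days. The 4 control libraries came from mice without a floxed Sox17 allele that spent 3 weeks in room air from 10 weeks of age. The 4 hypoxic Sox17-deleted libraries came from Sox17fl/fl mice exposed to hypoxia for the same 3 weeks, so the effects of genotype and of oxygen cannot be told apart. The labels do not say whether a library is 1 animal, and the deposited names of hypoxic Sox17-deleted libraries 2, 3 and 4 share a stem, so the spread between libraries may be partly technical. In a pulldown, fewer cells of a type and less RNA per cell cannot be told apart either.

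Levels are given in CPM, the usual scaling of counts by the library total, with the SD over 4 libraries. Library totals ran from 7000313 to 12913304 counts, so 3 counts, the level that a count of 0 still allows, correspond to between 0.232 and 0.429 CPM. Sox17, the deleted gene, had 235 ± 39.2 CPM in controls and 36.6, 3.28, 0.857 and 3.67 CPM in hypoxic Sox17-deleted libraries 1 to 4 (11.1 ± 17.1 CPM), so library 1 kept the most, although the labels do not say whether the sequenced 3′ end lies in the deleted part. Between 9821 and 10429 genes were detected in control libraries and between 8019 and 8708 in hypoxic Sox17-deleted ones. The 17 pan-endothelial markers (6 higher, 11 lower) summed to 18679 to 20094 CPM in controls and 10505 to 17842 CPM in hypoxic Sox17-deleted libraries. The pulldown thus carried endothelial transcripts in every library. Alveolar type 2 markers (8 of 10 tested members higher, none at 0 in all libraries) summed to 962 to 1285 and 2050 to 4048 CPM. The corresponding sums were 1755 to 2685 and 3948 to 6054 CPM for club and ciliated cell markers (6 of 6 higher), 704 to 1053 and 1039.5 to 9518 CPM for fibroblast markers (6 of 10 higher, with Gsn alone at 8208 CPM in hypoxic Sox17-deleted library 4), and 106 to 168 and 148 to 764 CPM for smooth muscle and pericyte markers (3 of 5 higher). They were 558 to 648 and 657 to 1108 CPM for alveolar type 1 markers (6 of 6 higher) and 82.1 to 134 and 139 to 603 CPM for macrophage and monocyte markers (6 of 6 higher, Adgre1 at 0 in all libraries). B and T cell markers, with Ms4a1 and Cd8a among those at 0 in all libraries, reached at most 30.1 CPM in controls and 0.269 CPM in hypoxic Sox17-deleted libraries. Foxf1 is also transcribed in lung fibroblasts and pericytes, and Foxp1 and Foxo1 in many cell types, and the part of these cells in the forkhead levels was not tested.

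Regulatory sequence is shown for 2 loci on which the measurements bear: Foxo1, the member with the largest difference among the abundant ones, and Fendrr, a long noncoding RNA gene that starts 1.28 kb from Foxf1 on the opposite strand. The RefSeq table (GRCm38.p6) held windows for 5 of the 8 members and for Fendrr, and the 250 bases before each start were searched. Capitals mark a CCAAT box (CCAAT or its reverse complement ATTGG) in the Foxo1 sequence, chr3:52268087-52268335, plus strand. In the Fendrr sequence, chr8:121083111-121083360, minus strand, capitals mark the forkhead core (GTAAAC or its reverse complement GTTTAC).
Foxo1: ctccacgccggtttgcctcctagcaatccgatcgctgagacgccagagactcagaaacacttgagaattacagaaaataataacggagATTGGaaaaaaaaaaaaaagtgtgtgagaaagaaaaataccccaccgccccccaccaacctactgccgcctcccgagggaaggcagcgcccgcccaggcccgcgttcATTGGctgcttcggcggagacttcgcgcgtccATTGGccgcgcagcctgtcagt
Fendrr: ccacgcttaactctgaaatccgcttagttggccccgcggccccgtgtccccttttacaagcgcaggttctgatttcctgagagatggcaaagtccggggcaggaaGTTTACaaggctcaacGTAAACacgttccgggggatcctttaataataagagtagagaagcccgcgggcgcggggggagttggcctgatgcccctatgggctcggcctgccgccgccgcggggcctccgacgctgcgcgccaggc
The Foxo1 window held 3 CCAAT boxes, all as ATTGG and beginning 162, 55 and 23 bases before the start. The box, the target of the general factor NF-Y, occurs in 33.8% of all windows of this length. The Fendrr window held 2 forkhead cores in opposite orientation, beginning 145 and 129 bases before the start, where 6.92% of all windows hold at least 1. The SOX core AACAAT, or its reverse complement ATTGTT, was in neither window and is in 9.42% of all windows. Among the other windows searched, 1 of Foxp1 held the SOX core as ATTGTT, beginning 228 bases before the start. The CCAAT box, as ATTGG, was also in another window of Foxp1, beginning 36 bases before the start, and in that of Foxc1, beginning 101 bases before it. The forkhead core was in no window of a member. These matches describe letters and are not evidence of binding.

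Of the 8 genes, 3 had at least 226 counts in every library. In controls Foxp1 stood highest, followed by Foxf1 and Foxo1, then Foxn3, and the other 4 had 0 counts in at least 3 of the 8 libraries. QuantSeq libraries give about 1 tag per transcript, so CPM was not divided by transcript length when genes were ranked. In controls the ranges of Foxp1 and Foxf1 did not overlap, those of Foxf1 and Foxo1 did, and those of Foxo1 and Foxn3 did not. In hypoxic Sox17-deleted libraries the order of the mean levels was the same, with Foxf1 above Foxo1 in all 4 libraries and no overlap between their ranges, while Foxo1 and Foxn3 overlapped. Foxp1, Foxf1 and Foxo1 together made up 81.7% ± 4.25 of all forkhead counts in controls and 77.6% ± 3.98 in hypoxic Sox17-deleted libraries.

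**Figure D1:**
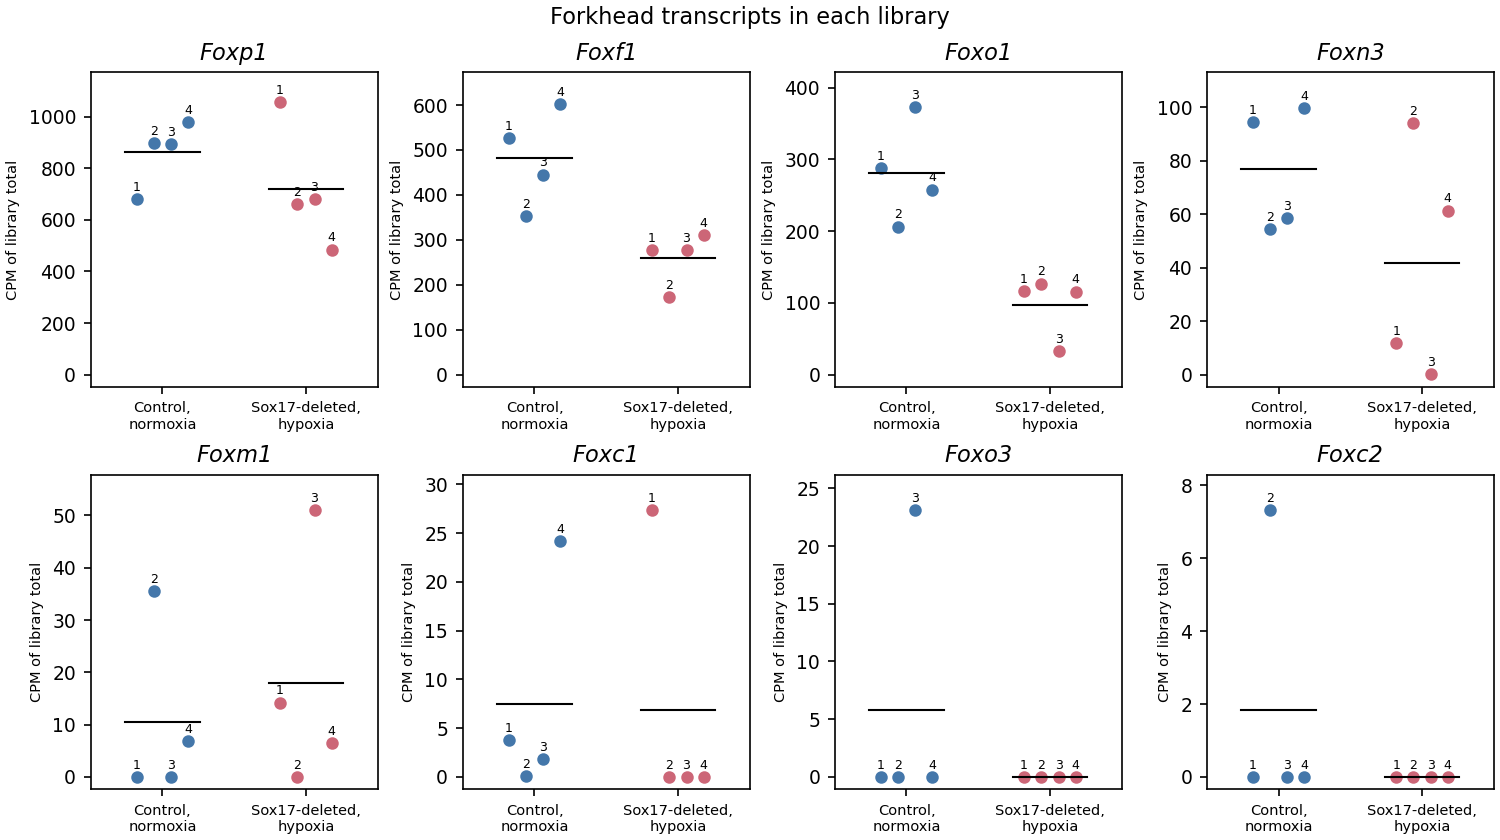
Level of each of the 8 forkhead genes in each library, in CPM of the library total, with the scale set per gene; numbers are library numbers and lines are group means. Foxf1 and Foxo1 have no overlap between the groups, while Foxm1, Foxc1, Foxo3 and Foxc2 sit at 0 in several libraries.

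None of the 6 members that passed the low-count filter passed the test for a difference between the groups (edgeR quasi-likelihood test, Benjamini-Hochberg adjustment over 8282 genes, threshold 0.05), and the share of all tested genes that passed was 0%. The same edgeR fit did not call Sox17, the deleted gene, although its groups did not overlap (log2 fold change −4.39, edgeR adjusted p = 0.346). DESeq2 called Sox17 (adjusted p = 0.000495) and limma-voom did not (adjusted p = 0.334). The lack of called members in this fit is therefore not evidence that their levels were unchanged. An unadjusted p under 0.05 was found for 2 members, Foxo1 and Foxf1, both lower in the hypoxic Sox17-deleted libraries, where 3.05% of all tested genes, and 4.29% of the 2052 with a mean level of 100 CPM or more, were lower with such a p. DESeq2 called 0 members, beside 1.94% of 7974 genes, and limma-voom 0 members, beside 0.169% of 8282. With edgeR the number at an unadjusted p under 0.05 was 1 (Foxo1) without control library 1 or 4, without hypoxic Sox17-deleted library 2 and without a low-count filter. Over all genes, in either direction, it was then 403 of 8829, 381 of 8692, 875 of 9058 and 1605 of 14071, beside 424 of 8282 in the main fit. Without hypoxic Sox17-deleted library 1 it was 3 members (with Foxc1), beside 973 of 9048 genes. Foxc1 then had 0 counts in all libraries left in that group, and 1 count in control library 2. The groups did not overlap for the same 2 members, again lower, where 4.96% of all tested genes were lower without overlap and 1.63% higher. Among the 2052 genes of 100 CPM or more, the share lower without overlap was 4.43%, and 2 of the 3 members at that level were. Of the 6 tested members 5 had a lower and 1 a higher fitted level (median log2 fold change −0.55), beside 4172 of 8282 lower genes and a median of −0.01 over all genes tested.

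Foxo1 (ENSMUSG00000044167.6, chromosome 3, 52268336 to 52353221, plus strand, GRCm38, 3 exons) is the FOXO factor best known for holding endothelial cells in quiescence. Its level was 288, 206, 373 and 258 CPM in control libraries 1 to 4 and 116, 127, 32.3 and 116 CPM in hypoxic Sox17-deleted libraries 1 to 4. Every hypoxic Sox17-deleted library lay below every control, with library 3 lowest. The means were 281 ± 69.9 and 97.7 ± 43.9 CPM (SD, n = 4), a log2 fold change of −1.53 (SE 0.48), with an edgeR unadjusted p of 0.00640 and an edgeR adjusted p of 0.386. By unadjusted p it ranked 136 of 8282 genes. Without hypoxic Sox17-deleted library 3 it came to −1.26 on the log2 scale (edgeR adjusted p = 0.403). The lowest adjusted p of 17 alternatives was 0.175 and the highest 0.895.

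Foxf1 (ENSMUSG00000042812.5, chromosome 8, 121084386 to 121088144, plus strand, 2 exons) was at 526, 353, 445 and 602 CPM in the controls and at 277, 172, 277 and 309.9 CPM in the hypoxic Sox17-deleted libraries. Here too every hypoxic Sox17-deleted library lay below every control, the nearest pair being hypoxic Sox17-deleted library 4 and control library 2. The means were 481 ± 107 and 259 ± 60.1 CPM, a log2 fold change of −0.87 (SE 0.35), with an edgeR unadjusted p of 0.0271 and an edgeR adjusted p of 0.785. Its 17 alternatives gave adjusted p values between 0.328 and 1.00.

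Set against the summed level of the pan-endothelial markers, the separation of both genes was lost. Per 1000 CPM of summed pan-endothelial markers, Foxf1 was at 24.7 ± 5.34 CPM in controls and 17.9 ± 8.08 CPM in hypoxic Sox17-deleted libraries, where library 4 reached 29.5 beside a highest control of 29.9. Foxo1 was at 14.4 ± 3.49 and 6.82 ± 3.81 CPM on this scale, and its highest hypoxic Sox17-deleted value, 11.0 in library 4, passed the lowest control, 10.7 in library 2. Library 4 had the lowest sum of pan-endothelial markers. Foxp1 was at 44.1 ± 5.37 and 46.4 ± 9.05 CPM per 1000 CPM of these markers. This scaling was chosen after the values were seen, and it removes any part of a difference that the marker genes share.

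Foxp1 (ENSMUSG00000030067.17, chromosome 6, 98925338 to 99522721, minus strand), a gene of 597 kb with 31 annotated transcripts, was the most abundant forkhead transcript in each of the 8 libraries and stood above 98.1% of tested genes by mean level. Its level was 679.8, 897, 893 and 977 CPM in the controls and 1056, 659, 681 and 484 CPM in the hypoxic Sox17-deleted libraries. The groups overlapped, since hypoxic Sox17-deleted library 1 was the highest of all 8 and library 4 the lowest. The means were 862 ± 127 and 720.2 ± 241 CPM, a log2 fold change of −0.23 (SE 0.32) and an edgeR adjusted p of 1.00. A 3′ tag does not tell its transcripts apart. Within a library, the ratio of Foxf1 to Foxp1 counts was 0.394 to 0.774 in controls and 0.260 to 0.640 in hypoxic Sox17-deleted libraries, and that of Foxo1 to Foxp1 was 0.230 to 0.423 and 0.0474 to 0.239. Both ratios overlapped between the groups, and whether the 3 genes differ in their response was not tested.

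**Figure D2:**
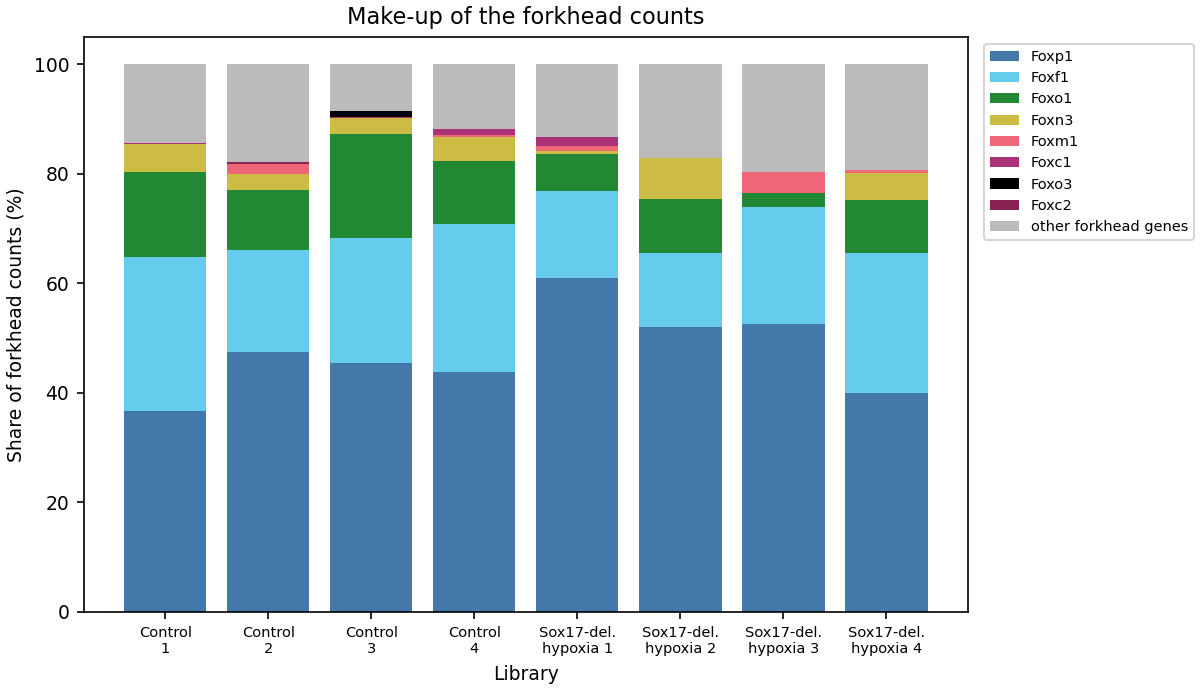
Share of all forkhead counts taken by each gene in each library, in percent. Foxp1 takes the largest share in all 8 libraries, and Foxo1 takes 10.9% to 19.0% in controls and 2.49% to 9.96% in hypoxic Sox17-deleted libraries.

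Foxo3 (ENSMUSG00000048756.11, chromosome 10, 42181841 to 42276755, minus strand), the close relative of Foxo1 in the FOXO branch, had 269 counts in control library 3 (23.1 CPM) and 0 counts in the other 7 libraries, and did not pass the filter. Foxo4, another FOXO gene, was measured more evenly, at 38.4, 14.9, 19.8 and 21.5 CPM in controls and 0.0774, 36.2, 162 and 52.9 CPM in hypoxic Sox17-deleted libraries (log2 fold change 1.49, SE 1.47, edgeR adjusted p = 1.00). Hypoxic Sox17-deleted library 3, lowest for Foxo1, was highest for Foxo4. Libraries 1 and 4 of that group, both at 116 CPM of Foxo1, were at 0.0774 and 52.9 CPM of Foxo4. Foxo6 had 0 counts in all 4 hypoxic Sox17-deleted libraries and in control library 3, and 6.39 to 23.1 CPM in the other 3 controls.

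Foxn3 (ENSMUSG00000033713.12, chromosome 12, 99190078 to 99563582, minus strand) encodes a repressor linked to checkpoint control. It was at 94.3, 54.3, 58.5 and 99.7 CPM in controls and at 11.8, 94.0, 0.286 and 61.3 CPM in hypoxic Sox17-deleted libraries. The controls were close together, while the hypoxic Sox17-deleted libraries ran from 2 counts in library 3 to 888 counts in library 2. The log2 fold change was −0.93 (SE 1.21, edgeR adjusted p = 1.00), and its alternatives ran from −2.17 to −0.52. It was −0.52 without hypoxic Sox17-deleted library 3, −1.67 without library 2, −1.97 with limma-voom and −2.17 with the title number as a block. The median over all genes tested was itself −0.70 with limma-voom and −0.57 with the block, beside −0.01 in the main fit.

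Foxc1 (ENSMUSG00000050295.4, chromosome 13, 31806633 to 31812476, plus strand, 1 exon) had 40, 1, 21 and 287 counts in controls and 353, 0, 0 and 0 counts in hypoxic Sox17-deleted libraries. In each group 1 library held most of the counts. The log2 fold change of −0.09 (SE 2.53, edgeR adjusted p = 1.00) took the other sign without control library 4 (1.86), and was −9.26 without hypoxic Sox17-deleted library 1, which left the group at 0 counts and so gives no bound. Foxc2 (ENSMUSG00000046714.7, chromosome 8, 121116171 to 121118895, plus strand, 1 exon), which lies 31.8 kb from the start of Foxf1, had 81 counts in control library 2 and 0 in the other 7 libraries. It did not pass the filter.

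Foxm1 (ENSMUSG00000001517.14, chromosome 6, 128362967 to 128376146, plus strand) had 0, 393, 0 and 81 counts in controls and 183, 0, 357 and 72 counts in hypoxic Sox17-deleted libraries. Both groups held libraries at 0 and libraries above 30 CPM. The means were 10.6 ± 16.9 and 17.9 ± 22.8 CPM, and the log2 fold change of 0.85 (SE 2.53, edgeR adjusted p = 1.00) became −0.64 without hypoxic Sox17-deleted library 3.

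Values of 0 beside high counts were common for genes at this level. Where the other 7 libraries averaged 5 to 20 CPM, 37.2% of values in controls and 59.6% of values in hypoxic Sox17-deleted libraries were 0 or 1 count. For genes of 20 to 100 CPM, the level of Foxn3, these shares were 6.86% and 22.1%. For genes of 100 to 1000 CPM, the level of Foxp1, Foxf1 and Foxo1, they were 0.0512% and 1.07%. The values of Foxc1, Foxc2, Foxo3 and Foxm1 allow no statement on a difference between the groups.

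Of all 44 forkhead symbols, 26 had at least 3 counts in any library, 15 had none in any library, and 14 passed the filter. Foxp3, the factor of regulatory T cells, is set aside, because its counts of 329, 128, 34 and 154 in controls and 0 in the other 4 libraries are those of Ccdc22 in all 8 libraries. Foxp3 and Ccdc22 overlap on opposite strands of the X chromosome, and the shared counts cannot be assigned to either. Among all tested genes 37 had the same 8 counts as another gene, and no other forkhead gene with counts in at least 3 libraries was one of them. Of the remaining 13 tested forkhead genes, 10 had a lower and 3 a higher fitted level in the hypoxic Sox17-deleted libraries, and edgeR called 0.

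The 7 of these that are not among the 8 genes, Foxo4 included, were all low on average. Foxk1, a nuclear factor that responds to mTOR signalling, was at 60.3 ± 45.9 and 45.8 ± 23.6 CPM, and its paralogue Foxk2 at 21.4 ± 16.0 and 9.46 ± 10.1 CPM. Foxj2 was at 50.6 ± 16.8 and 30.7 ± 27.8 CPM, Foxj3 at 17.4 ± 13.03 and 3.70 ± 5.85 CPM, and Foxn2 at 26.1 ± 10.8 and 15.0 ± 21.5 CPM. Foxj1, the master regulator of motile cilia and a marker of ciliated epithelium, was at 8.58 ± 8.94 and 38.0 ± 43.4 CPM. Foxj1 is itself one of the club and ciliated markers, and it had 0 counts in hypoxic Sox17-deleted library 3. All of these overlapped between the groups, with edgeR adjusted p values of 1.00. Foxa1, Foxa2 and Foxa3, which act in endoderm-derived epithelium, did not pass the filter, with highest levels of 9.41, 25.1 and 7.10 CPM. Nor did Foxp2, Foxp4, Foxd2, Foxq1 and Foxs1, whose highest levels were 52.7, 3.97, 25.9, 19.5 and 28.9 CPM.

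**Figure D3:**
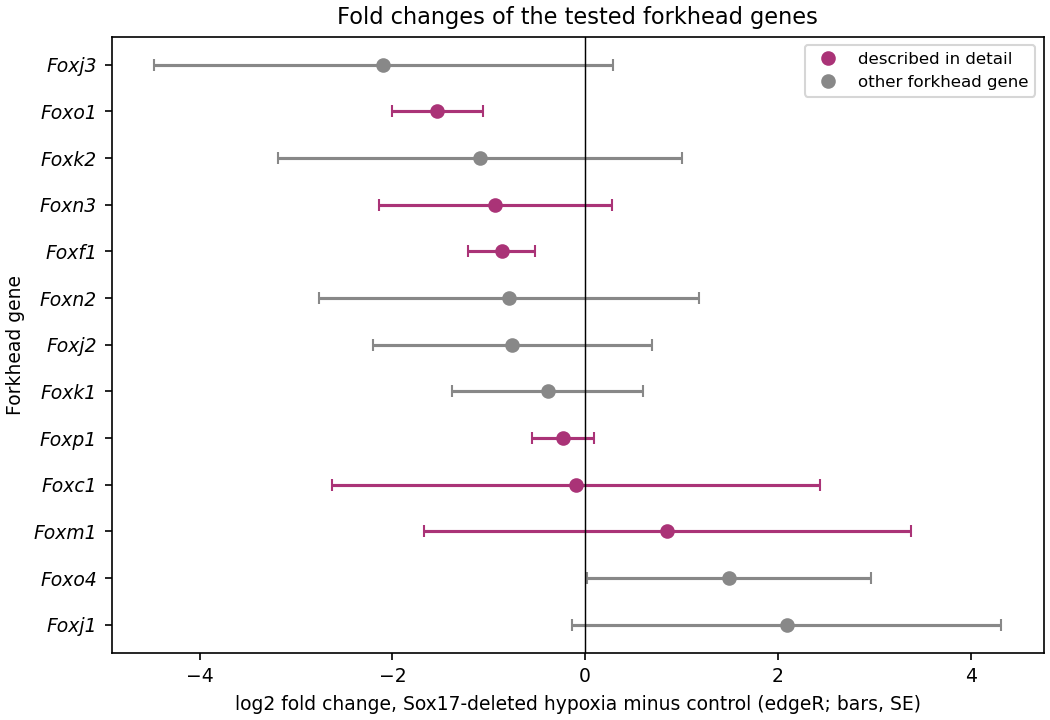
Log2 fold changes (hypoxic Sox17-deleted minus control, edgeR) with SE for the 13 tested forkhead genes other than Foxp3. Foxo1, Foxf1 and Foxp1 have the shortest error bars, and 10 of the 13 genes lie to the left of 0.

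At the Foxf1 locus, Fendrr (chromosome 8, 121054882 to 121083110, minus strand), whose upstream sequence is printed above, was at 58.2, 113, 55.8 and 62.4 CPM in controls and at 57.9, 86.7, 53.9 and 125 CPM in hypoxic Sox17-deleted libraries. The groups overlapped throughout (72.3 ± 27.1 and 80.8 ± 32.7 CPM, log2 fold change 0.15, SE 0.72, edgeR adjusted p = 1.00). Foxf1 exceeded Fendrr 3.13 to 9.64 times in controls and 1.98 to 5.14 times in hypoxic Sox17-deleted libraries, with overlap. Further along the locus Mthfsd was at 23.1 ± 29.8 and 13.03 ± 25.96 CPM and Irf8, an interferon regulatory factor of myeloid cells, at 22.7 ± 28.1 and 69.0 ± 50.1 CPM, and Foxl1 had 1 count in a single library. Around Foxc1, Foxq1 reached 7.50 CPM in a single control and 19.5 CPM in a single hypoxic Sox17-deleted library, Foxf2 had 0 counts throughout, Gmds had counts in 2 controls only and Exoc2 was at 18.3 ± 27.4 and 3.46 ± 5.79 CPM. Irf4 was at 0 in all libraries. Of the 4 neighbours tested 2 were higher and 2 lower (median log2 fold change −0.31), and edgeR called 0.

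The genes whose levels over the 8 libraries followed a member most closely were sought among 1980 other genes averaging 100 CPM or more, by the root mean square difference in log2 CPM after centring. Nearest to Foxf1 were Rin3 (0.23), Rsrc2 (0.26) and Tcf4 (0.27), where the median over the 1980 genes was 0.88. Tcf4, a basic helix-loop-helix factor, was at 975 ± 85.6 and 517 ± 45.4 CPM (log2 fold change −0.89, SE 0.29, edgeR adjusted p = 0.407). Nearest to Foxo1 were Sec31a (0.41), Fnbp1l (0.42) and Pxdn (0.44), with a median of 1.22. Nearest to Foxp1 were Slk (0.15), Col4a1 (0.19) and Mapt (0.20), with a median of 0.77. In likeness to Foxf1, Foxp1 ranked 210 (0.55) and Foxo1 850 (0.82). In likeness to Foxo1, Foxf1 ranked 227 (0.82) and Foxp1 491 (0.97).

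FOXO proteins are controlled by phosphorylation, acetylation and export rather than mainly by transcript level. Of 25 FOXO regulators listed, 22 were tested, and 14 were higher and 8 lower (median log2 fold change 0.19), with 0 called by edgeR. Ywhae and Ywhab, which encode 14-3-3 proteins that hold phosphorylated FOXO in the cytoplasm, were at 981 ± 184 and 924 ± 216 CPM and at 732 ± 155 and 720.5 ± 262 CPM. Akt1, the kinase that phosphorylates FOXO, was at 350.5 ± 72.9 and 256 ± 164 CPM (log2 fold change −0.47, SE 0.52, edgeR adjusted p = 1.00). The groups overlapped for all 3.

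Of 30 known FOXO target genes 24 were tested, and 17 were lower and 7 higher (median −0.23), with 0 called by edgeR. The most abundant were Klf2, a flow-induced factor of quiescent endothelium, at 2620.1 ± 218 and 1505 ± 847 CPM (log2 fold change −0.80, SE 0.38, edgeR adjusted p = 1.00), Klf4 at 1957 ± 248 and 1694 ± 903 CPM, and the cyclin-dependent kinase inhibitor gene Cdkn1a at 1434 ± 369 and 1378 ± 721 CPM. The groups overlapped for these 3. Separate groups were found for 2 of the 24 targets, 1 higher and 1 lower, beside 1.63% higher and 4.96% lower among all tested genes. Bnip3, a mitophagy receptor also induced by hypoxia, was at 30.4, 61.2, 68.0 and 133 CPM in controls and 212, 219, 389.6 and 355 CPM in hypoxic Sox17-deleted libraries (log2 fold change 2.05, SE 0.52, edgeR adjusted p = 0.346). DESeq2 called Bnip3 (adjusted p = 0.0104), and the other alternatives gave adjusted p values up to 0.764. S1pr1, the endothelial receptor for sphingosine-1-phosphate, was at 641, 966, 866 and 1161 CPM and at 629, 600.2, 97.1 and 612 CPM (−0.92, SE 0.46, edgeR adjusted p = 1.00).

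Genes linked to FOXF1 in endothelium numbered 15 tested of 20, with 12 lower and 3 higher (median −0.19) and 0 called by edgeR. Tmem100, a membrane protein gene of lung capillaries that depends on BMP signalling, was the most abundant and had no overlap between the groups, at 1753 ± 162 and 986 ± 443 CPM (log2 fold change −0.80, SE 0.35, edgeR adjusted p = 0.898). The VEGF receptor gene Kdr was at 1089 ± 148 and 985 ± 415 CPM and the VEGF receptor gene Flt1 at 898 ± 151 and 1170.1 ± 283 CPM, both with overlap. S1pr1 and Tmem100 were the 2 of 15 without overlap, both lower, beside 4.96% of all tested genes. Several of these genes, among them Kdr and Tmem100, are also pan-endothelial markers.

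Vascular genes linked to FOXC numbered 9 tested of 14, with 6 lower and 3 higher (median −0.49) and 0 called by edgeR. Lyve1, a receptor known from lymphatic endothelium, was at 1401 ± 333 CPM in controls, and which endothelial cells its counts came from was not tested. In hypoxic Sox17-deleted libraries it was at 2614, 437, 341 and 573 CPM, with library 1 above all others. Of the 9 tested, 1 was lower without overlap and 0 higher, beside 4.96% lower and 1.63% higher among all tested genes. That gene, Notch4, was at 359.7 ± 64.9 and 224 ± 36.3 CPM (log2 fold change −0.65, SE 0.35, edgeR adjusted p = 1.00). The Notch target Hes1 was at 252 ± 44.1 and 265 ± 189 CPM.

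Of 23 FOXM1 target genes 14 were tested, with 9 higher and 5 lower (median 0.24), and of 11 FOXM1 regulators 6 were tested, with 4 higher and 2 lower (median 0.39). EdgeR called 0 in either list. No tested member of either was separate between the groups, beside 4.96% lower and 1.63% higher among all tested genes. Top2a, the mitotic topoisomerase gene, was at 116 ± 104 and 189.99 ± 179.7 CPM, with 0 CPM in control library 1 and in hypoxic Sox17-deleted library 1. Ccna2 was at 49.0 ± 55.5 and 66.6 ± 74.6 CPM and Cdc20 at 49.8 ± 32.8 and 56.3 ± 53.0 CPM. Among the regulators, the histone-binding subunit gene Rbbp4 was at 238 ± 68.4 and 170.1 ± 92.0 CPM, Rb1 at 76.7 ± 60.1 and 86.8 ± 65.2 CPM and Rbl2 at 30.6 ± 22.4 and 46.3 ± 52.2 CPM. Corepressors that work with FOXP and FOXN3 proteins were measured in 16 of 17 cases, with 10 lower and 6 higher (median −0.09) and 0 called by edgeR. Ncor1 was at 929 ± 170.3 and 938 ± 375 CPM, the NuRD helicase gene Chd4 at 306 ± 36.5 and 467 ± 226 CPM, and Gatad2a at 258 ± 43.5 and 273 ± 273 CPM.

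**Figure D4:**
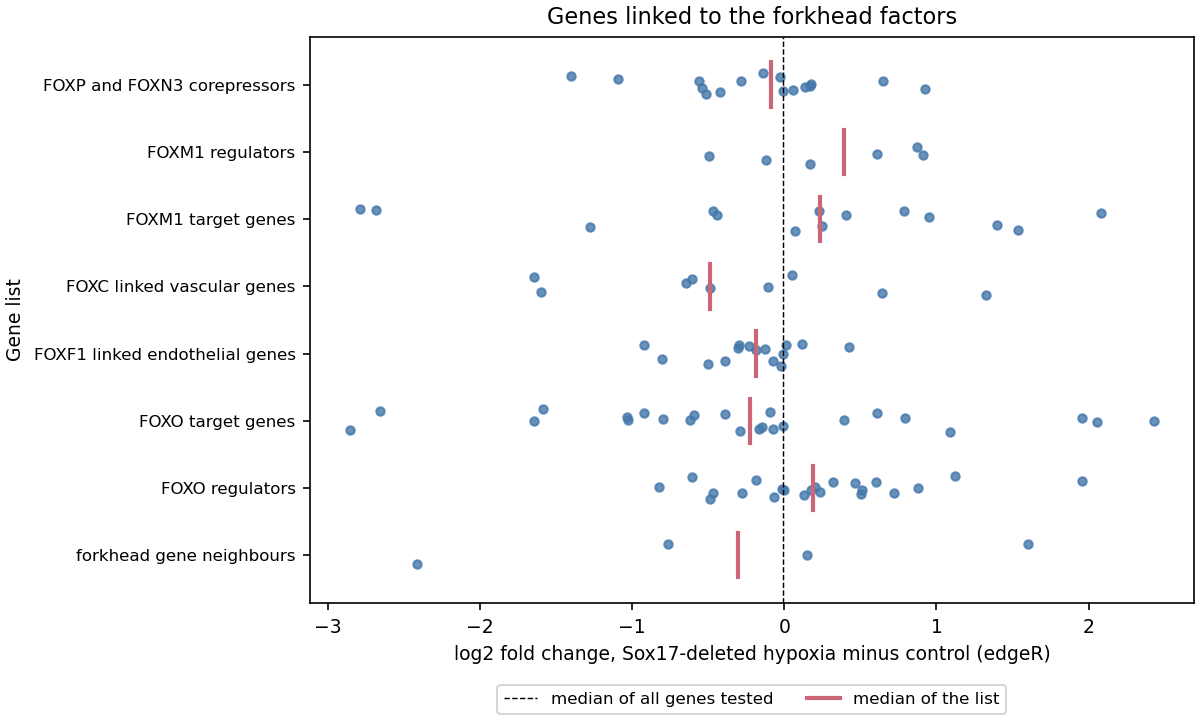
Log2 fold change (edgeR, hypoxic Sox17-deleted minus control) of each tested gene in the lists of neighbours, regulators, targets and corepressors; red lines are list medians and the dashed line is the median of all genes tested, −0.01. The list medians run from −0.49 for FOXC linked genes to 0.39 for FOXM1 regulators, and points of every list lie on both sides of 0.

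The fold changes of the abundant members kept their sign under each of the 17 alternatives run for them, which changed the normalization, filter or tool, used the title number as a block or left out a library. Foxf1 ran from −0.98 to −0.66, Foxo1 from −1.65 to −1.26 and Foxp1 from −0.44 to −0.06 on the log2 scale.

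**Figure D5:**
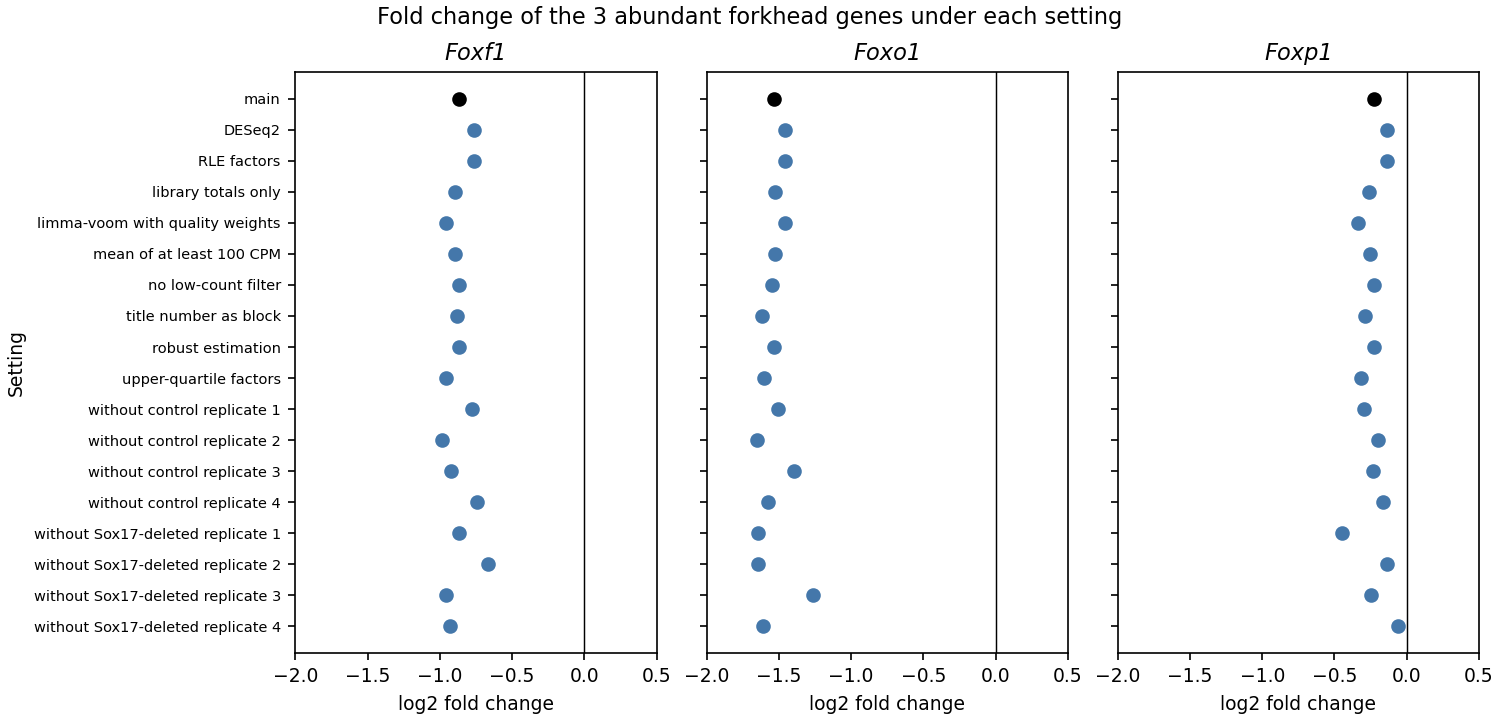
Log2 fold change of Foxf1, Foxo1 and Foxp1 under each processing setting, with the reported value in black. The lowest and highest values are −0.98 and −0.66 for Foxf1, −1.65 and −1.26 for Foxo1, and −0.44 and −0.06 for Foxp1.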

How the data were processed

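Per the labels' protocols, HA-tagged ribosomes were immunoprecipitated from lung and libraries were made with a QuantSeq 3′ kit. The deposited files hold raw counts for each gene symbol. The tools named per the submitters' processing notes are bedtools and Bowtie2, and the build is mm10. Versions, strand, duplicate reads and reads with several matches are not given in the sources used here, and no molecular identifiers are mentioned, so the limit set by a count of 0 covers counting error only.

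In all, 44 duplicate rows were summed. The test was edgeR 4.0.16 in R 4.3.3 with TMM factors, filterByExpr, group only and the quasi-likelihood F test, with the Benjamini-Hochberg adjustment over 8282 genes. An SE is the log2 fold change divided by the square root of F. DESeq2 1.42.0 and limma 3.58.1 were alternatives. No library repeated another (chi-square divided by degrees of freedom at least 191). Positions are from GENCODE M21 (GRCm38, also called mm10).

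The members and lists were chosen with earlier results of these data known. Of each list, the 3 most abundant tested genes are named, with genes of at least 100 CPM whose groups did not overlap. Values of 1 low forkhead gene and 1 marker gene are not reported here. The fit was tested on counts simulated for this comparison. With the observed dispersion (7706 genes) it recovered 0% of the genes changed 2-fold, 3.64% of those changed 4-fold and 30.4% of those changed 16-fold, and made 0 false calls. With low dispersion (8280 genes) it recovered 80.0% of the genes changed 2-fold and made 9 false calls. The observed dispersion was the trend over level, and the changed genes were drawn at random from tested genes of all levels. These rates are therefore not those for genes as abundant as Foxp1, Foxf1 and Foxo1.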

Additional observations from a re-analysis of the deposited data

Results flagged for a closer look

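Of 14 sets of 4 libraries of a group tested for the 8 genes, 5 held a library far from the other 3. Chance gives about 1 in 20 for normally distributed values, which does not apply to the 3 sets whose other libraries were all at 0. For skewed levels near 0, such as Foxc1 in controls, that rate need not hold either. Foxo1 was low in hypoxic Sox17-deleted library 3, at 32.3 CPM. Foxc1 was high in control library 4, at 24.1 CPM, and in hypoxic Sox17-deleted library 1, at 27.3 CPM. Foxo3 was high in control library 3, at 23.1 CPM, and Foxc2 in control library 2, at 7.32 CPM, each with 0 counts in the other 3 controls. The other 3 hypoxic Sox17-deleted libraries had 0 counts of Foxc1.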

How the results depend on the processing

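For the 8 genes, edgeR, DESeq2 and limma-voom called 0 under each alternative run. Over all genes, edgeR called 0 as reported, DESeq2 155 (33 higher, 122 lower), limma-voom with quality weights 14, edgeR without a low-count filter 17, edgeR among genes of at least 100 CPM 4 and edgeR with robust estimation 1. With a library left out the number ran from 0 to 5, the 5 without hypoxic Sox17-deleted library 1. The number of members whose groups did not overlap stayed at 2 under the other scalings, ran from 2 to 3 with a library left out (3 without hypoxic Sox17-deleted library 1) and was 0 per pan-endothelial marker level, a scaling chosen after seeing the data. The added member was Foxc1, at 0 counts in hypoxic Sox17-deleted libraries 2, 3 and 4 and at 1 count in control library 2. The share of all genes without overlap is not given for a library left out, so this rise is not a result about the members. With a library left out, the log2 fold change of Foxc1 ran from −9.26 to 1.86 (1.86 without control library 4, and 0.32 without hypoxic Sox17-deleted library 2, 3 or 4), and that of Foxm1 from −0.64 (without hypoxic Sox17-deleted library 3) to 3.11. With the replicate number of the titles as a block, edgeR called 0 genes and 0 members, and Foxf1 stood at −0.88, Foxo1 at −1.62, Foxp1 at −0.29, Foxn3 at −2.17, Foxc1 at −5.11 and Foxm1 at 4.10. The median over all genes tested was −0.57 in that fit, beside −0.01 in the main fit. Same-numbered libraries did not deviate together (r across genes from −0.02 to 0.02), and not every library correlated best with its own number, so the numbers were not taken as pairs. Foxc1, Foxc2, Foxo3 and Foxm1 had 0 counts in some libraries and highest counts of 81 to 393, and the cause was not tested.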
